A study of Mus musculus with 45 samples.

Results

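The genes examined were 9 genes of prostaglandin synthesis and prostaglandin E2 reception: the cyclooxygenases Ptgs1 and Ptgs2, the terminal synthases Ptges, Ptges2, Ptges3 and Ptgds, and the receptors Ptger2, Ptger3 and Ptger4. They were chosen by name, as the rows of the count table whose Ensembl identifier maps to these mouse symbols, and all 9 were found among 54532 genes. Levels were measured by RNA sequencing of hippocampal primary neurons from newborn C57BL/6N mice, in 45 libraries: 9 conditions with 5 libraries each, 1 from each of 5 culture preparations (replicates 1, 3, 6, 7 and 8). Neurons were left untreated (control) or received 50 µM bicuculline (Bic), a blocker of GABA type A receptors that makes the network fire action potentials, for 0.5, 1 or 2 h. In the short protocol (SP), neurons that had received Bic for 0.5 h were given, for another 0.5 h, 1 µM tetrodotoxin (TTX), a sodium channel blocker that stops firing (SP TTX), or TTX and 30 µM NMDA (SP TTX/NMDA). In the long protocol (LP), Bic for 1 h preceded 1 h of TTX (LP TTX), of TTX and NMDA (LP TTX/NMDA), or of 50 µM TBOA, a blocker of glutamate uptake (LP TBOA). Bic stayed in the medium during these interventions. The study calls the difference between TTX and Bic alone the passive component, the difference between TTX/NMDA and TTX the active component, and their sum, TTX/NMDA against Bic, the total.

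Prostaglandins are made from arachidonic acid, which phospholipases and endocannabinoid-degrading lipases release from lipids. A cyclooxygenase turns it into prostaglandin H2, from which terminal synthases make prostaglandin E2 (Ptges, Ptges2, Ptges3) or prostaglandin D2 (Ptgds), and prostaglandin E2 acts on G protein-coupled receptors of which Ptger2 and Ptger4 raise cyclic AMP and Ptger3 lowers it. In forebrain neurons, Ptgs2 (cyclooxygenase-2) is known as a gene induced by synaptic activity, whereas Ptgs1 (cyclooxygenase-1) is mostly described as constitutive and, in the brain, as a gene of microglia.

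The start sites of Ptgs2, Ptger4 and Ptgs1 are shown because the first 2 of these genes rose with Bic and Ptgs1 did not pass the test in any comparison. The sequences are from RefSeq (build GRCm38.p6), and all 9 genes matched an entry there. Each run is read 5′ to 3′ on the strand of the gene and ends with the base before the annotated start. Capitals mark matches, on either strand, to 8 motifs: the cyclic AMP response element (CRE) TGACGTCA, its core TGACG, the E-box CACGTG, the AP-1 letters TGACTCA and their other form TGAGTCA, the C/EBP letters TTGCGCAA, the TATA letters TATAAA, the CAAT letters CCAAT, and the GC box GGGCGG.
Ptgs2, chr1:150099781-150100030, plus strand: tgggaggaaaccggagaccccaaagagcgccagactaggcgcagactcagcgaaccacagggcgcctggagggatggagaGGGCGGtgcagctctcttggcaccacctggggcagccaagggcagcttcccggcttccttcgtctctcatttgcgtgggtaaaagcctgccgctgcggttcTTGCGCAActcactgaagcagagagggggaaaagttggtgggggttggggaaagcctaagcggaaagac
Ptger4, chr15:5244188-5244437, minus strand: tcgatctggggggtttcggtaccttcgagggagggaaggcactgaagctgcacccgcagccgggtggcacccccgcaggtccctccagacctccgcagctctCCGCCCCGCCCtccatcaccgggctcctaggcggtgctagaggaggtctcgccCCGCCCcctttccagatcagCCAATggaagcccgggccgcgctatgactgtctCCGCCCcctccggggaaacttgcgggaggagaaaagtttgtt
Ptgs1, chr2:36230176-36230425, plus strand: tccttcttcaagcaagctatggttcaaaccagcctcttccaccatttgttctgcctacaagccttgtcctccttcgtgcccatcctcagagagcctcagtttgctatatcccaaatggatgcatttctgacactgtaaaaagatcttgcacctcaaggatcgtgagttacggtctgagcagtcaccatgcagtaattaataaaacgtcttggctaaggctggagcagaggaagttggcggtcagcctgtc
The 30 bases from the Ptgs2 start site onward hold a CRE core on the opposite strand that overlaps an E-box by 2 bases:
Ptgs2, chr1:150100031-150100060, plus strand: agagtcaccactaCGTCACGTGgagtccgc

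In windows of 300 bases around 32851 RefSeq start sites (250 before and 50 after), the CRE core was present in 20.8%, the E-box in 7.15%, the C/EBP letters in 0.183%, CCAAT in 37.4% and the GC box in 35.7%. The full CRE was present in 1.79%, the AP-1 letters in 5.2% and the TATA letters in 13.6%, and none of these 3 was in the Ptgs2, Ptger4 or Ptgs1 window. The Ptger4 window held 4 GC boxes, all on the opposite strand, and the Ptgs1 window held no match to any of the 8. These matches describe the letters only.

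The libraries held 11316580 to 81129276 reads on genes, and levels are given as CPM (counts per 1000000 reads on genes) after TMM scaling, as mean ± SD over 5 libraries unless stated. Each comparison used edgeR's quasi-likelihood test on the libraries of its conditions, with Benjamini-Hochberg adjustment over all genes with at least 1 read. A gene was called when its adjusted p-value was under 0.05. The paired fit is the same test with the culture preparation as a block, over the genes that pass a low-count filter. That filter removed Ptger2 and kept the other 8 genes in every comparison. The neuronal markers summed to 6690 to 8870 CPM and those of microglia to 10.3 to 27.5 CPM, and those of astrocytes to 947 to 2200 CPM. In bulk RNA, fewer cells of a type and less RNA per cell cannot be told apart.

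Per kilobase of annotated exon, the control levels were 26.6 ± 4.69 CPM per kb for Ptges3, 8.09 ± 0.442 for Ptges2, 2.82 ± 0.205 for Ptger3 and 1.58 ± 1.02 for Ptgds. Those of Ptgs2 (0.816 ± 0.3), Ptges (0.359 ± 0.132), Ptgs1 (0.232 ± 0.0495) and Ptger4 (0.107 ± 0.0273) were lower, and Ptger2 was nearly silent at 0.0154 ± 0.0192. After 2 h of Bic, Ptgs2 reached 33.3 ± 13.2 CPM per kb and Ptges3 stood at 24 ± 1.82, while Ptgs1 stood at 0.293 ± 0.0457. On this per-length scale the mean level of Ptgs2 was above that of Ptgs1 in all 9 conditions.

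Ptgs2 (ENSMUSG00000032487, chr1:150100031-150108227, plus strand, GRCm38) encodes the inducible cyclooxygenase and was the member with the widest range, 2.19 to 210 CPM. In the control, its level in preparations 1, 3, 6, 7 and 8 was 5.57, 2.76, 3.53, 4.64 and 2.19 CPM. After 0.5 h of Bic it was 11.5, 13.7, 24.3, 16.1 and 15.3 CPM, and after 1 h 59.1, 47.5, 57.3, 57.8 and 32.6 CPM. Every library with 0.5 h of Bic lay above every control library, and every library with 1 h of Bic above those with 0.5 h. After 2 h the levels were 185, 210, 165, 151 and 52 CPM. Preparation 8 was the lowest after 1 and 2 h, and its 2 h library lay within the range of the 1 h libraries.

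Relative to the control, Ptgs2 rose by 2.13 ± 0.164 (log2 fold change ± SE) after 0.5 h of Bic (adjusted p = 6.87e-15), by 3.77 ± 0.157 after 1 h (adjusted p = 6.66e-22) and by 5.34 ± 0.242 after 2 h (adjusted p = 7.85e-19). The fold changes were 4.37, 13.7 and 40.6. Over the genes that pass the low-count filter, the edgeR adjusted p-values were larger, at 6.94e-05, 1.88e-08 and 6.39e-08. DESeq2 gave 3.83e-18, 1.74e-39 and 2.11e-39. Within preparations, the 2 h level was between 23.8 and 76.1 times that of the control. The steps were significant as well, with a log2 fold change of 1.64 ± 0.115 from 0.5 to 1 h (adjusted p = 8.39e-19) and 1.57 ± 0.185 from 1 to 2 h (adjusted p = 1.16e-07). From 1 to 2 h the rise was 2.98-fold. It was the only member called after 0.5 h (1 of 9, against 0.289% of all genes tested), after 1 h (1 of 9, against 1.16%) and in the step from 0.5 to 1 h (1 of 9, against 0.677%).

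**Figure D1:**
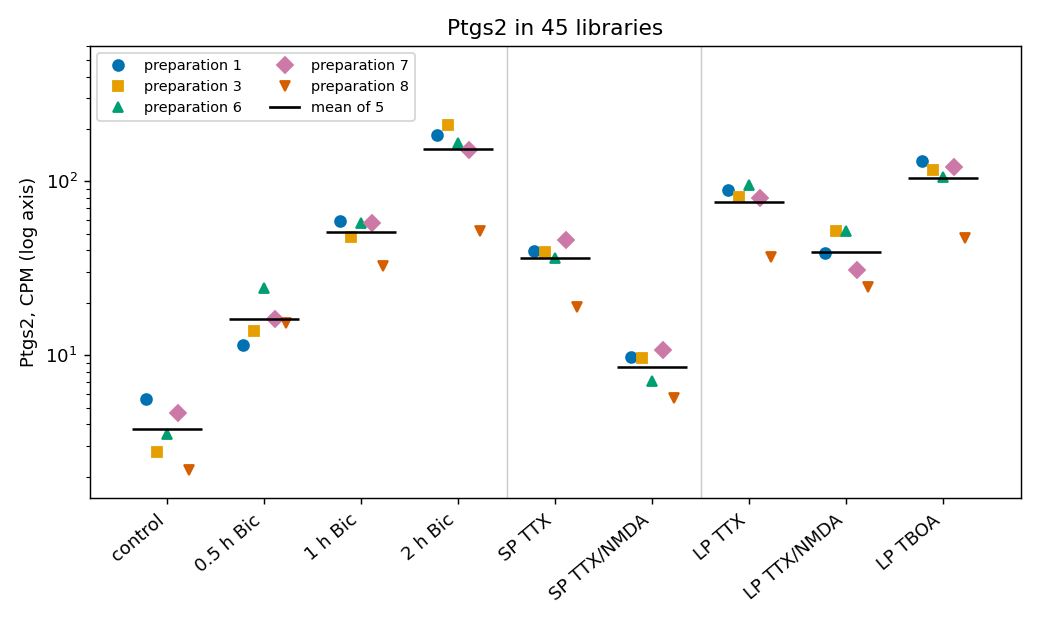
Ptgs2 level (CPM, log axis) in each of 45 libraries by condition; symbols mark the 5 culture preparations and black lines the mean of 5. The means climb from 3.74 CPM in the control to 153 CPM after 2 h of Bic, and SP TTX/NMDA (8.56 CPM) lies below every library with 1 h of Bic; preparation 8 is the lowest in 8 of 9 conditions.

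In the short protocol, TTX left Ptgs2 at 39.5, 39.2, 36.4, 46.2 and 19 CPM in preparations 1, 3, 6, 7 and 8, and TTX/NMDA left it at 9.74, 9.63, 7.14, 10.7 and 5.66 CPM. All 5 TTX/NMDA libraries lay below all 5 TTX libraries and also below all libraries with 0.5 h of Bic, the time at which the intervention began. The active component was a log2 fold change of -2.08 ± 0.155 (adjusted p = 1.15e-11), with 24.3 ± 3.68% of the TTX level of the same preparation remaining. The total against 1 h of Bic was -2.58 ± 0.132 (adjusted p = 7.78e-17), with 17 ± 2.91% remaining. The passive component was smaller, -0.51 ± 0.134, and was not called (adjusted p = 0.129). Ptgs2 was lower with TTX in 5 of 5 preparations, at 70.2 ± 10.6% of the 1 h Bic level, and the paired fit called it (adjusted p = 0.00417), as did the fits without preparation 3 (9.19e-06), 7 (0.00255) or 8 (9.69e-06), while DESeq2 gave an adjusted p of 1.

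In the long protocol, the levels with TTX were 89.4, 81.1, 94.9, 79.7 and 36.5 CPM and those with TTX/NMDA were 38.9, 51.5, 51.5, 30.7 and 24.6 CPM. Each preparation fell at both steps, although the ranges of neighbouring conditions overlap through preparation 8. The passive component was a log2 fold change of -1.01 ± 0.206 (adjusted p = 0.00196; 53.5 ± 11.7% of the 2 h Bic level of the same preparation), which DESeq2 did not call (adjusted p = 0.0507; range over all alternatives 1.17e-23 to 0.0507). The active component was -0.96 ± 0.174 (adjusted p = 9.14e-05; 53.4 ± 12.4% of the LP TTX level). The total was -1.97 ± 0.203 (adjusted p = 2.16e-09; 28.9 ± 11.1% of the 2 h Bic level). The summed neuronal markers were lower in the LP active component as well. They were 7980 to 8870 CPM with LP TTX and 7050 to 7640 CPM with LP TTX/NMDA, with no overlap and no marker at 0. Of the 10 markers, 4 were called lower and 1 higher, against 23.3% of all genes tested and 46.9% of those with a mean of at least 1 CPM. Their part in the falls of Ptgs2, and of Ptger3 and Ptger4 described later, was not tested. With TTX for the last hour, Ptgs2 lay above its level at 1 h of Bic, the time at which TTX was added. LP TTX was higher by 0.57 ± 0.144 (log2), in 5 of 5 preparations, with an adjusted p of 0.00732 that ranged from 4.95e-11 to 0.213 over the alternatives. That call was lost over the filtered genes, with all 45 libraries in 1 fit and by DESeq2. Even LP TTX/NMDA kept Ptgs2 above the control in every library.

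The active component of Ptgs2 was weaker in the long than in the short protocol. The log2 difference, LP minus SP, was 1.13 ± 0.286 (adjusted p = 0.022; paired fit 2.34e-04), and Ptgs2 was the only member called in this comparison (1 of 9, against 2.57% of all genes tested). The call was lost without preparation 3 (adjusted p = 0.0644) and without preparation 6 (0.052). It was also lost over the filtered genes and with all 45 libraries in 1 fit (largest adjusted p over the alternatives 0.0858). Ptgds was called there without preparation 6 (log2 difference 1.35, adjusted p = 0.0375) or 8 (1.12, adjusted p = 0.0321). The paired fit called 4 of the 8 members it tested, against 25% of the genes it tested: Ptgs2, Ptges (log2 difference 0.71, adjusted p = 0.0297), Ptgds (1.36, adjusted p = 0.00115) and Ptger3 (-0.26, adjusted p = 0.0221). The passive components of the protocols were not shown to differ for any member (0 of 9 by edgeR and by DESeq2, and 0 at an unadjusted p under 0.05, against 0.256% of all genes called by edgeR). For Ptgs2 that difference was -0.50 ± 0.301 (unadjusted p 0.105, adjusted p = 0.916). Without preparation 8, the Ptgs2 difference of passive components was -0.58 and was called (adjusted p = 0.0018). The protocols differ in the length of Bic treatment and of the intervention together, and these cannot be told apart.

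LP TBOA held 131, 116, 106, 120 and 47.2 CPM of Ptgs2. Every preparation was below its own 2 h Bic level, at 54.9 to 90.7%, and above its own LP TTX level. The log2 difference from 2 h of Bic was -0.54 ± 0.201 and was not called (unadjusted p 0.0106, adjusted p = 0.399). The paired fit called it (adjusted p = 0.00581), as did the fit without preparation 8 (adjusted p = 8.55e-14), in which each variance came from the trend over all genes alone. Over the 9 conditions, the order of Ptgs2 from low to high was control, SP TTX/NMDA, 0.5 h Bic, SP TTX, LP TTX/NMDA, 1 h Bic, LP TTX, LP TBOA and 2 h Bic. The 3 lowest conditions did not overlap with each other, and all later neighbours overlapped.

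**Figure D2:**
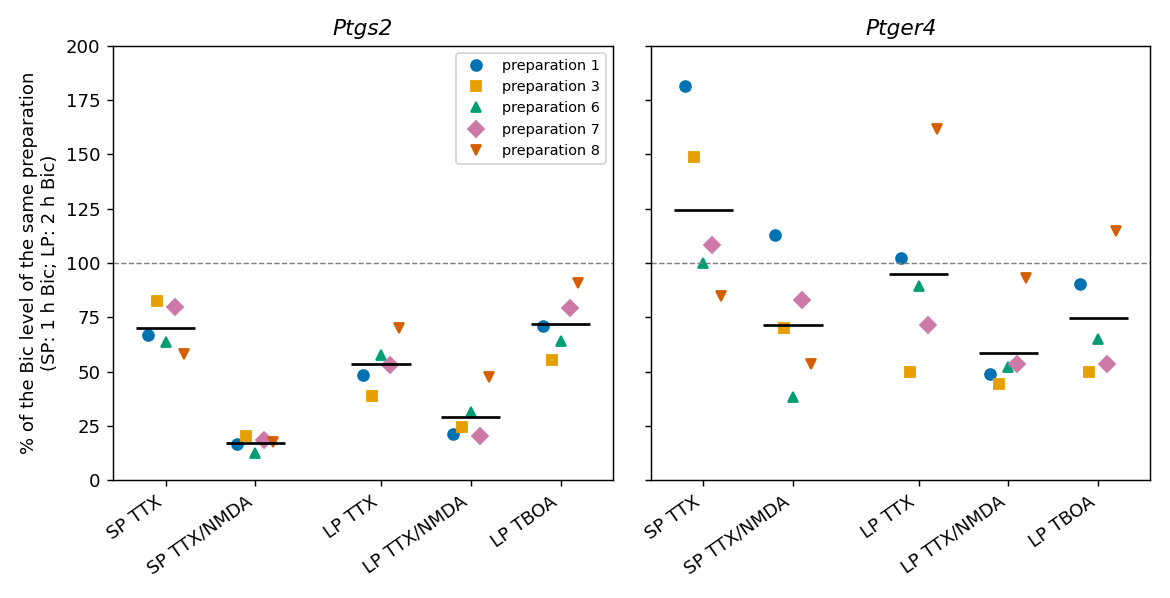
Ptgs2 (left) and Ptger4 (right) in the intervention libraries as a percentage of the Bic level of the same preparation (1 h Bic for SP, 2 h Bic for LP); symbols mark preparations, lines the mean of 5 and the dashed line 100%. For Ptgs2 all 25 points lie below 100%, and SP TTX/NMDA is lowest, at 20.3% or less; for Ptger4 the points scatter on both sides except with LP TTX/NMDA, where all 5 lie between 44.4 and 93.4%.

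Ptgs1 (ENSMUSG00000047250, chr2:36230426-36252272, plus strand), the constitutive cyclooxygenase, was not called in any of 13 comparisons. Its level was 0.901 ± 0.192 CPM in the control, 1.14 ± 0.177 after 2 h of Bic and 1.48 ± 0.393 with LP TTX/NMDA, its highest condition, with 8 to 82 reads per library. The largest difference among the Bic comparisons, 2 h against the control, was a log2 fold change of 0.34 ± 0.229 (adjusted p = 0.474). With LP TTX/NMDA, Ptgs1 stood at 1.88, 1.38, 1.6, 1.7 and 0.858 CPM, and its difference from LP TTX was 0.21 ± 0.213 (adjusted p = 0.506). Ptgs1 shares 148 of its 3884 exon bases with a gene on the opposite strand, which the strand-specific counting keeps apart.

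Among the terminal synthases, Ptges (ENSMUSG00000050737, chr2:30889471-30929863, minus strand), the inducible microsomal prostaglandin E synthase, kept nearly the same mean with Bic, 1.41 ± 0.52 CPM in the control against 1.65 ± 0.511 after 2 h (log2 fold change 0.19 ± 0.234, adjusted p = 0.688). It rose with LP TTX/NMDA, where it was 4.1, 2.96, 1.81, 3.71 and 1.77 CPM against 1.55, 1.75, 1.66, 1.68 and 1.19 CPM with LP TTX. These groups did not overlap. The active component was 0.88 ± 0.206 (log2; adjusted p = 0.00161) and the total 0.81 ± 0.22 (adjusted p = 0.00545). Preparation 1 had the largest rise, and without it the total was 0.62 and was not called (adjusted p = 0.0636). In the short protocol the active component was 0.21 ± 0.199 (adjusted p = 0.596).

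Ptgds (ENSMUSG00000015090, chr2:25466709-25470046, minus strand), the lipocalin-type prostaglandin D synthase, behaved alike with LP TTX/NMDA but varied more. It was 7.73, 5.81, 1.88, 5.23 and 2.6 CPM there, against 4.21, 2.56, 1.57, 2.44 and 1.6 CPM with LP TTX and 4.06, 1.3, 1.04, 1.48 and 2.26 CPM after 2 h of Bic. It was higher in 5 of 5 preparations in both comparisons, with overlapping ranges. The active component was 0.96 ± 0.26 (log2; adjusted p = 0.00645; DESeq2 0.0854) and the total 1.3 ± 0.279 (adjusted p = 4.91e-04). LP TBOA against 2 h of Bic gave 0.86 ± 0.241 and was not called (adjusted p = 0.115; paired fit 0.0535; without preparation 1, 0.0149, and without preparation 8, 1.01e-06). From 0.5 to 1 h of Bic, Ptgds was lower in 3 of 5 preparations and was not called (adjusted p = 0.635; paired fit 0.607). It was called lower without preparation 1, 6, 7 or 8 (log2 fold change -0.72 to -1.1). Each of those fits kept preparation 3, which held 10.2 CPM after 0.5 h against 1.16 to 2.72 CPM in the others. Without preparation 6, 7 or 8, each variance came from the trend over all genes alone. Markers of cells known to express Ptgds moved in the LP active component. There, 8 of 8 leptomeningeal fibroblast markers and 5 of 10 oligodendrocyte lineage markers were called higher and none lower. In that component 23.3% of all genes tested were called, and 46.9% of those with a mean of at least 1 CPM. The summed leptomeningeal level was 164 to 460 CPM with LP TTX/NMDA and 117 to 292 CPM with LP TTX, and that of the oligodendrocyte lineage 174 to 345 and 114 to 191 CPM, with no marker of either list at 0 in these 10 libraries. Of the astrocyte markers 6 of 7 were called higher and 1 lower, and of the microglial markers 6 of 10 were higher and none lower (19 to 27.5 against 12.1 to 18.4 CPM). Of 5 endothelial markers 1 was called higher and 1 lower, and their sum was lower (5.99 to 8.59 against 9.19 to 12.4 CPM). The part of these cell types in the changes of Ptgds and Ptges was not tested.

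Ptges3 (ENSMUSG00000071072, chr10:128058954-128077272, plus strand), a cytosolic prostaglandin E synthase better known as the Hsp90 co-chaperone p23, was abundant and changed little. Its mean was lowest after 2 h of Bic (53.1 ± 4.03 CPM) and highest with LP TTX/NMDA (69.6 ± 6.17 CPM). In the latter, it was 63.7, 77.5, 68.8, 63.8 and 74.1 CPM, against 52.1, 55.9, 48.2, 58.3 and 51 CPM after 2 h of Bic, with no overlap. The LP total was 0.38 ± 0.0728 (log2; adjusted p = 1.34e-04) and the SP total 0.26 ± 0.0745 (adjusted p = 0.0403). The SP total was lost without preparation 1 (adjusted p = 0.0838), 6 (0.105) or 7 (0.155), and with all 45 libraries in 1 fit. The LP active component, 0.19 ± 0.0733, was not called (adjusted p = 0.0564), and was called over the filtered genes (0.0188), by the paired fit (0.00187), by DESeq2 (0.0438) and without preparation 7 (0.0247) or 8 (0.0471). The annotation holds a pseudogene, Ptges3-ps, at 3.24 CPM, and reads that map to both loci were not counted, so the split between them is uncertain.

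Ptges2 (ENSMUSG00000026820, chr2:32395896-32405772, plus strand), the membrane-associated prostaglandin E synthase, was the steadiest member, with condition means from 39.1 to 43.3 CPM and no call in the 13 comparisons by edgeR without the low-count filter. In LP TTX it was lower than after 2 h of Bic in 5 of 5 preparations, at 39.1 ± 1.43 against 43.3 ± 1.23 CPM with no overlap. That log2 fold change of -0.16 ± 0.063 had an adjusted p of 0.197 over all genes with a read, and was called over the filtered genes without (0.0397) and with the block (0.00745) and by DESeq2 (0.0102).

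**Figure D3:**
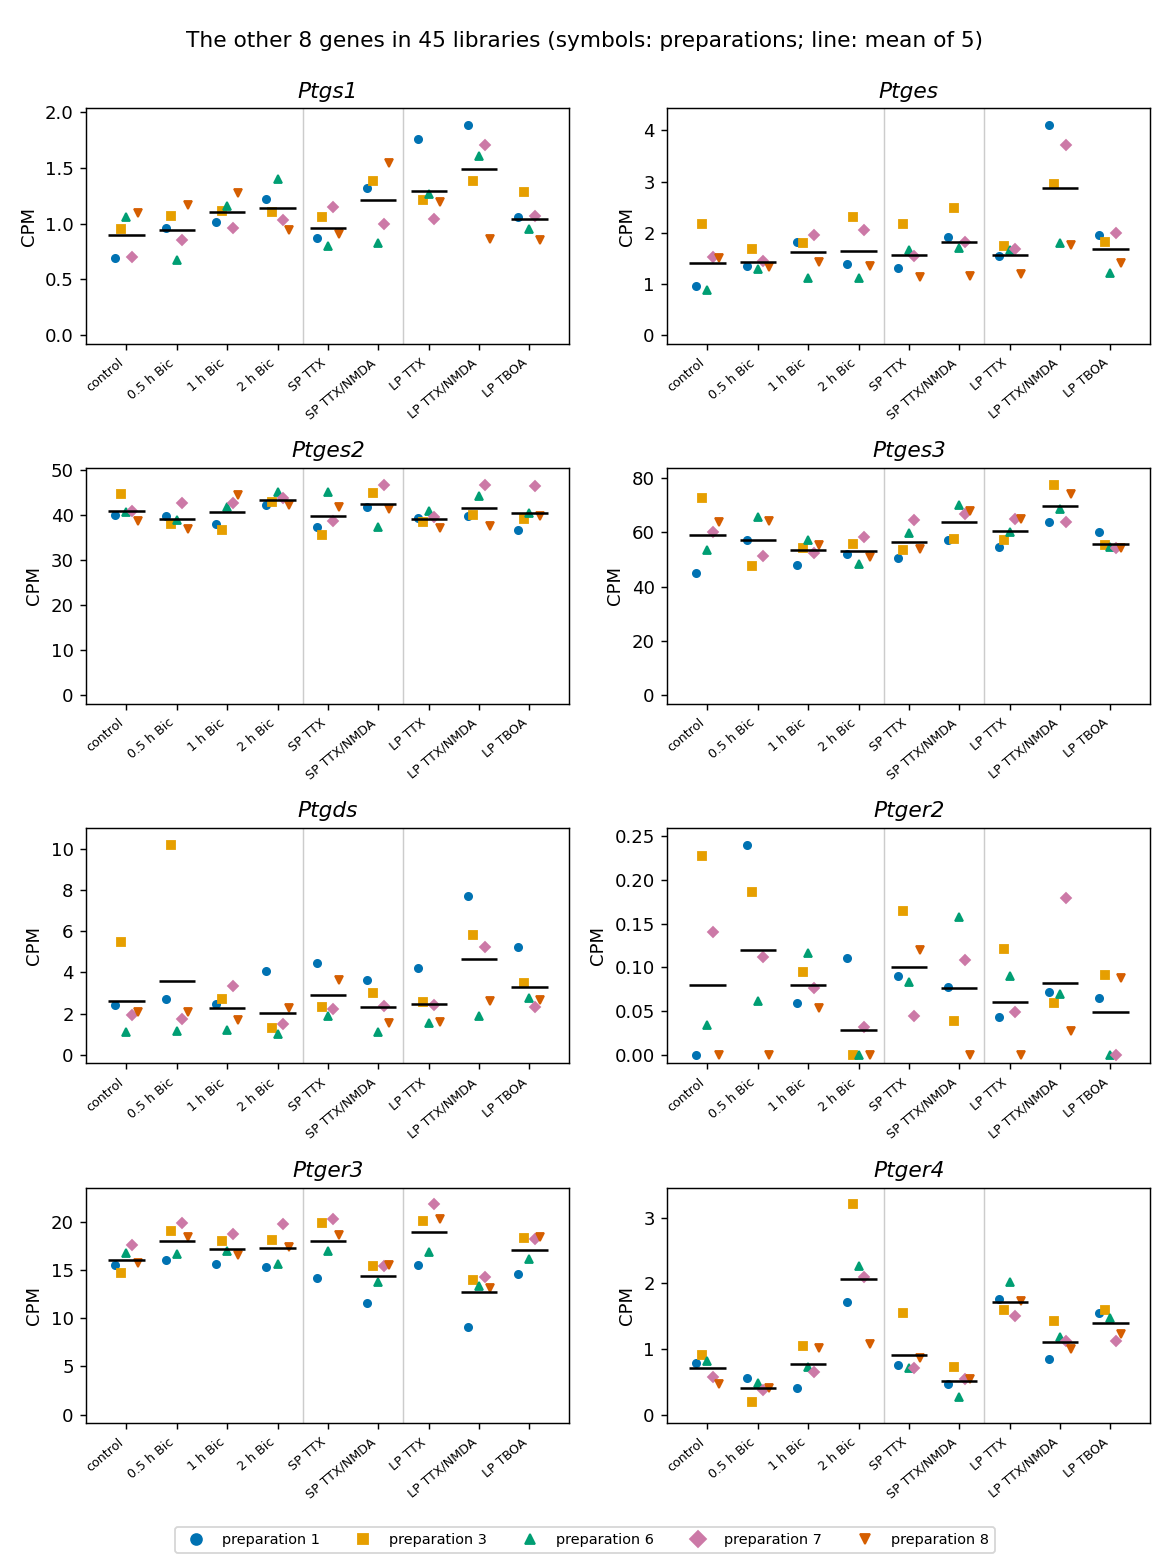
Levels of the other 8 genes (CPM, linear axes) in each of 45 libraries; symbols mark preparations and lines the mean of 5. Ptger4 is highest after 2 h of Bic (2.07 CPM), Ptges and Ptgds with LP TTX/NMDA (2.87 and 4.65 CPM), Ptger3 is lowest with LP TTX/NMDA (12.8 CPM), and Ptges2 stays between 35.5 and 46.7 CPM.

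Among the receptors, Ptger4 (ENSMUSG00000039942, chr15:5206661-5244187, minus strand), the EP4 receptor, was the other member that rose with Bic, later than Ptgs2 and from a low level. In the control it was 0.783, 0.906, 0.823, 0.58 and 0.468 CPM in preparations 1, 3, 6, 7 and 8. After 0.5 h its mean was 0.403 ± 0.142 CPM and after 1 h 0.768 ± 0.262 CPM, and neither was called against the control (adjusted p = 0.844 and 0.893), although after 0.5 h Ptger4 was lower in 5 of 5 preparations (unadjusted p = 0.0148 by edgeR). After 2 h it was 1.72, 3.2, 2.26, 2.1 and 1.07 CPM, all above all control libraries. The log2 fold change was 1.56 ± 0.253 against the control (adjusted p = 2.41e-05) and 1.41 ± 0.246 against 1 h (adjusted p = 1.31e-04). Together with Ptgs2, this made 2 of 9 members called at 2 h, against 9.02% of all genes tested, and 2 of 9 in the step from 1 to 2 h, against 5.33%.

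With LP TTX, Ptger4 stood at 1.76, 1.59, 2.02, 1.5 and 1.73 CPM, near its 2 h Bic mean (log2 fold change -0.31 ± 0.2, adjusted p = 0.52). It was higher than after 1 h of Bic by 1.11 ± 0.215 (log2; adjusted p = 3.61e-04), with no overlap of the libraries. Ptgs2 and Ptger4 were the members called in that comparison (2 of 9, against 7.19% of all genes tested). The paired fit called 3 of the 8 members it tested, all higher, and DESeq2 called Ptger4 alone. LP TTX/NMDA brought Ptger4 to 0.843, 1.42, 1.18, 1.12 and 0.997 CPM, below all LP TTX libraries. The active component was -0.62 ± 0.19 (adjusted p = 0.0155; without preparation 1, 0.0927) and the total -0.92 ± 0.224 (adjusted p = 0.002). The neuronal marker sum was 7050 to 7640 CPM with LP TTX/NMDA, against 7980 to 8870 CPM with LP TTX and 7610 to 8630 CPM after 2 h of Bic. In the short protocol, the active component was -0.80 ± 0.272, lower in 5 of 5 preparations, and was called by the paired fit (adjusted p = 0.0175) but not without the block (0.103). With LP TBOA, Ptger4 was called against 2 h of Bic only without preparation 8 (log2 fold change -0.67, adjusted p = 0.0404). Ptger4 rested on 4 to 120 reads per library, and 1097 of its exon bases overlap exons on the opposite strand. Its order over the conditions ran from 0.5 h Bic, SP TTX/NMDA and control through 1 h Bic, SP TTX, LP TTX/NMDA and LP TBOA to LP TTX and 2 h Bic, and every pair of neighbours overlapped.

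Ptger3 (ENSMUSG00000040016, chr3:157566892-157645888, plus strand), the EP3 receptor, was the most abundant receptor of the list and did not pass the test with Bic at any time. It fell with NMDA. Its level was 15.5, 20.1, 16.9, 21.8 and 20.3 CPM with LP TTX and 9.11, 14, 13.3, 14.3 and 13.1 CPM with LP TTX/NMDA, with no overlap. The LP active component was -0.59 ± 0.113 (log2; adjusted p = 2.04e-04) and the total -0.45 ± 0.107 (adjusted p = 0.00146). The summed neuronal markers were 7050 to 7640 CPM with LP TTX/NMDA, lower than with LP TTX (7980 to 8870 CPM). After 2 h of Bic they were 7610 to 8630 CPM, which overlaps. In the short protocol that sum was 7280 to 7960 CPM with TTX/NMDA and 7230 to 8100 CPM with TTX. There Ptger3 was 14.2, 19.9, 17, 20.3 and 18.6 CPM with TTX and 11.6, 15.4, 13.8, 15.4 and 15.5 CPM with TTX/NMDA. All 5 preparations were lower, by a nearly constant ratio (75.8 to 83.3% of the TTX level). That difference of -0.33 ± 0.0984 was just past the threshold (adjusted p = 0.0489; paired fit 0.004; DESeq2 0.0334), and leaving out preparation 1, 3, 6 or 7 in turn raised the adjusted p to 0.0565, 0.101, 0.0668 and 0.1. It was also not called over the filtered genes (0.0807), with RLE size factors or with all 45 libraries in 1 fit. The SP total was not called with all 5 preparations (-0.26 ± 0.0931, adjusted p = 0.117) and was called without preparation 8 (0.0382), by the paired fit (0.00353) and by DESeq2 (0.0323).

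Ptger2 (ENSMUSG00000037759, chr14:44988195-45003820, plus strand), the EP2 receptor, was at the limit of detection, with 106 reads in all 45 libraries and at most 7 in any. It had 0 reads in 10 libraries, in which 3 reads, the number that a count of 0 allows, would be 0.0703 to 0.265 CPM. No comparison called it, and changes of this gene were not detectable at this depth.

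**Figure D4:**
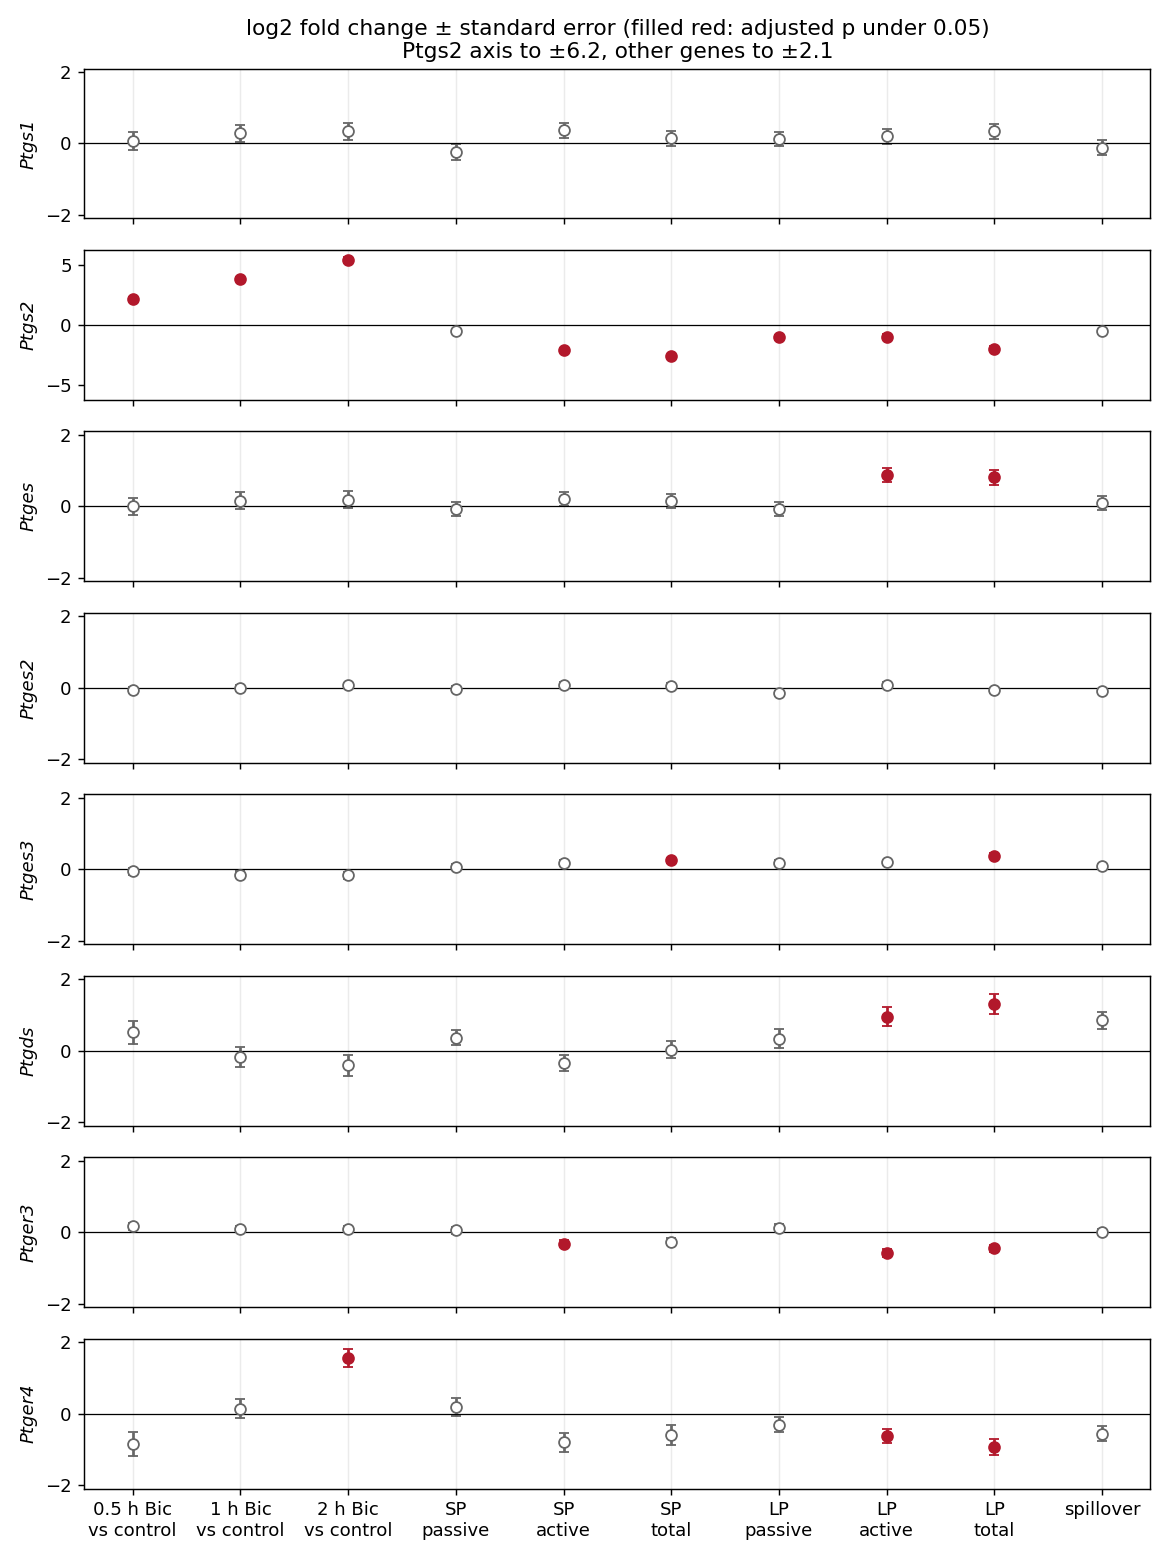
Log2 fold change ± SE of 8 genes (Ptger2 left out) in 10 comparisons (spillover is LP TBOA against 2 h Bic); filled red points have an adjusted p-value under 0.05 without the block, and the vertical axis of Ptgs2 is wider than the others. Ptgs2 is called in 8 of 10 comparisons, Ptges and Ptgds only with LP TTX/NMDA and upward, and Ptger3 only downward and with NMDA.

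Counted over comparisons, the NMDA arms held most calls. In the LP active component 5 of 9 members were called, Ptges and Ptgds higher and Ptgs2, Ptger3 and Ptger4 lower, against 23.3% of all genes tested and 46.9% of those with a mean of at least 1 CPM (DESeq2 also called 5, with Ptges3 in place of Ptgds). In the LP total, 6 of 9 were called, Ptges, Ptges3 and Ptgds higher and the same 3 lower, against 22.8% and 45.3%. All members but Ptger2 (0.0751 CPM) had a mean of at least 1 CPM. Whether the members were called more often than other genes at such levels was not tested. In the SP active component 2 of 9 were called (Ptgs2 and Ptger3, both lower), against 4.28%, and 4 of the 8 tested in the paired fit (Ptges3 and Ptger4 added), against 16.2%. In the SP total 2 of 9 were called (Ptgs2 lower, Ptges3 higher), against 4.30%. In the short protocol, TTX alone gave 0 calls of 9 by edgeR and by DESeq2, against 0.268% of all genes, with Ptgs2 alone at an unadjusted p under 0.05 (paired fit Ptgs2, 1 of the 8 tested, against 0.489%). In the long protocol edgeR called Ptgs2 alone with TTX (1 of 9, against 4.65%), DESeq2 called Ptges2 and not Ptgs2, edgeR over the filtered genes called both, and the paired fit called Ptgs2, Ptges2 and Ptges3 (3 of the 8 tested, against 32%). TBOA gave 0 calls of 9 by edgeR and by DESeq2, against 0.602% of all genes, with 3 members (Ptgs2, Ptgds and Ptger4) at an unadjusted p under 0.05, and in the paired fit Ptgs2 alone was called (1 of the 8 tested, against 2.67%). In none of the 13 comparisons between conditions did the median log2 fold change of the 13592 genes with a mean of at least 1 CPM leave the range from -0.0106 to 0.0243.

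Other genes of the pathway were counted in 4 lists: arachidonate supply (12 genes), other prostanoid synthases, breakdown and transport (10), other prostanoid receptors (6) and the lipoxygenase branch (6). Against the control, 0 of these 34 genes were called at any time of Bic by edgeR or DESeq2, and 4 had an unadjusted edgeR p under 0.05, all at 2 h (Daglb, Hpgd, Ptgdr and Ptgfr). Among genes of arachidonate supply, the LP active component called 3 higher and 4 lower of 12, against 23.3% of all genes tested and 46.9% of those with at least 1 CPM (6 of 12 by DESeq2; median of the 9 genes with at least 1 CPM -0.05, against -0.01 for all such genes). Mgll, monoacylglycerol lipase, rose by 0.45 ± 0.0871 (log2; adjusted p = 2.06e-04), and Pla2g4a, the cytosolic phospholipase A2, by 0.71 ± 0.216 (adjusted p = 0.0144) at 1.15 CPM. Dagla, a diacylglycerol lipase that makes the endocannabinoid 2-arachidonoylglycerol, fell by 0.41 on the log2 scale (SE 0.0674, adjusted p = 2.49e-05) and Faah, the hydrolase of anandamide, fell by 0.38 (SE 0.0635, adjusted p = 3.01e-05). Daglb and Abhd6 were also lower, and Pla2g4f was called higher at 0.0648 CPM. By edgeR, Dagla was the only gene of these 4 lists called in the short protocol, in the active component (-0.28 ± 0.0701, adjusted p = 0.0127) and in the total (-0.32 ± 0.0661, adjusted p = 0.00165), and it was lower in LP TTX than after 2 h of Bic (-0.26 ± 0.0666, adjusted p = 0.0184). DESeq2 also called Slco2a1 in the SP active component and Faah and Ptgr2 in the SP total. Markers of neurons and of other cell types also moved with LP TTX/NMDA, as given above. Their part in the changes of the genes in these 4 lists was not tested.

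Of 10 other synthases, breakdown enzymes and transporters, 3 were called higher and none lower in the LP active component, a share near those of all genes given above (4 of 10 by DESeq2, with Cbr1 added; median of 7 genes 0.46). They were the prostaglandin reductases Ptgr1 (0.69 ± 0.157, adjusted p = 0.00123) and Ptgr2 (0.56 ± 0.0874, adjusted p = 1.16e-05) and the exporter Abcc4 (0.46 ± 0.14, adjusted p = 0.015). In the LP total, 6 of 10 were called, against 22.8% of all genes tested and 45.3% of those with at least 1 CPM (5 by DESeq2, without Abcc4): Hpgds and Hpgd, the prostaglandin-degrading dehydrogenase, joined them, and the prostaglandin uptake transporter Slco2a1 fell by 0.64 on the log2 scale (SE 0.154, adjusted p = 0.00194). Among the 6 other receptors, all of which had a mean under 1 CPM, Ptgfr, the prostaglandin F receptor, was called higher in the LP active component (0.88 ± 0.228, adjusted p = 0.00452; higher in 4 of 5 preparations). The lipoxygenase branch had Alox5 (1.06 ± 0.33, adjusted p = 0.018) and Alox12 (2.73 ± 0.979, adjusted p = 0.042) called higher in that component, at means of 0.269 and 0.0275 CPM. That is 2 of 6, against 23.3% of all genes tested. DESeq2 called Alox5 alone, and the low-count filter removed Alox12. In the LP total, 0 of the 6 were called.

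The genes whose 9 condition means (log2 CPM) were most like those of Ptgs2 among 13591 others were Dnajb1 (Pearson r 0.988), Ppp1r15a (0.987), Emx2 (0.986), Ier5 (0.984) and Plk2 (0.983). For Ptger4 they were 2610035D17Rik (r 0.983), Pax1, Suv39h2, Apmap and Nap1l2 (0.971). For Ptger3 they were Pcdhb21 (r 0.993), Kcnd3, Akap6, Dpy19l3 and Mmp16 (0.99). For Ptges they were Sag (r 0.984), Acot11, Gm37928, Plin3 and Epas1 (0.981), for Ptges3 Ranbp1 (r 0.987), Zcrb1, Tmem126a, Tmod3 and Ndufab1 (0.981), and for Ptgds, with the lowest values, Bmpr1b (r 0.926), Nudt12, Pdk4, Itga6 and Prim2 (0.885). These values describe 9 points that come from the same 45 libraries, and the genes compared share depth and preparations.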

How the data were processed

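The deposited table holds raw counts, without normalization. Poly-A RNA went into stranded libraries, and the authors aligned single-end reads with STAR 2.5.4b to GRCm38 and counted reads per gene with featureCounts 1.6.5 on the sense strand, leaving out reads that mapped to several places or to several genes; bcl2fastq 2.20.0.422 is also in the submitters' processing notes. Gene symbols were matched for 54409 of 54532 identifiers. Median depth was 26239614 counts.

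Here CPM were scaled by TMM over 45 libraries (factors 0.921 to 1.09). Each comparison was tested with edgeR 4.0.16 (R 4.3.3) on the 2 conditions' libraries over genes with at least 1 read, without a block, and the difference of protocols on 4 conditions. Alternatives were DESeq2 1.42.0, filterByExpr, the culture preparation as a block over the filtered genes, RLE size factors, all 45 libraries in 1 fit, and leaving out each preparation. The tests were checked on simulated data. The labels give the culture preparation, which pairs the samples: deviations from the condition means over 13592 genes had a median correlation of 0.486 within a preparation and -0.108 between preparations, and 42 of 45 libraries correlated best with a library of their own preparation. Per-length levels used the union of exons in the GENCODE annotation of GRCm38, another release than the authors used. Motifs were matched as exact letters on both strands.

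The members and lists were chosen with earlier results of these data known. Named genes were the 9 members, genes called from the pathway lists, and for each member called in a comparison, with at least 1 CPM, the 5 genes with the highest correlation of condition means (log2 of CPM plus 0.5).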

Additional observations from a re-analysis of the deposited data

Results flagged for a closer look

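Single libraries stood far from the other 4 of their condition (Dixon's test at the 95% level) in 6 of 81 groups of 5, where chance alone gives about 1 in 20. Ptgs2 with LP TTX was lowest in preparation 8, at 36.5 CPM against 79.7 to 94.9. Ptgds after 0.5 h of Bic was highest in preparation 3, at 10.2 CPM against 1.16 to 2.72, where the control of the same preparation was also the highest of its group (5.48 CPM) and the summed leptomeningeal markers were 287 CPM against 291 in that control. Ptger3 with LP TTX/NMDA was lowest in preparation 1, at 9.11 CPM against 13.1 to 14.3. Ptges3 with LP TBOA was highest in preparation 1, at 60.3 CPM against 54.2 to 55.5. Ptger4 with SP TTX was highest in preparation 3, at 1.55 CPM (38 reads) against 0.706 to 0.856. Ptger2 after 2 h of Bic was highest in preparation 1, at 0.111 CPM, which is 2 reads.

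The active component of Ptgs2 differed between the protocols by a test of the difference itself, 1.13 on the log2 scale, LP minus SP (adjusted p = 0.022, range over the alternatives 4.73e-09 to 0.0858).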

How the results depend on the processing

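Of 26 calls of members (differences between protocols included), 18 were made under all 10 alternatives, no called value changed sign, and RLE size factors moved none of 81 condition means by more than 1 SD. The Bic responses of Ptgs2 and Ptger4 were among the 18. In 10 of 75 fits that left out a preparation, among them those for the step from 0.5 to 1 h without preparations 3, 6, 7 and 8 and for SP passive, SP active and LP TBOA against 2 h Bic without preparation 8, the prior degrees of freedom were infinite, so each variance came from the trend over all genes alone. Counts of members called that moved by over 1.5 times were as follows, each against the value in the report; the cause was not tested. With the replicate block, SP passive gave 1, SP active 4, LP passive 3, LP TBOA against 2 h Bic 1 and the difference of active components 4, and the block moved no other count by that much. With filterByExpr, SP active gave 1, LP passive 2, LP TTX against 1 h Bic 1 and the difference of active components 0. With all 45 libraries in 1 fit, SP active gave 1, SP total 1, LP TTX against 1 h Bic 1 and the difference of active components 0. RLE size factors gave 1 in SP active, and DESeq2 gave 1 in LP TTX against 1 h Bic. Leaving out a preparation gave 1 to 2 in the step from 0.5 to 1 h (Ptgds added without 1, 6, 7 or 8), 0 to 1 in SP passive (Ptgs2, without 3, 7 or 8), 1 to 2 in SP active, 1 to 3 in SP total, 0 to 3 in LP TBOA against 2 h Bic (Ptgds without 1; Ptgs2, Ptgds and Ptger4 without 8), 0 to 1 in the difference of passive components and 0 to 2 in that of active components. Ptgds in the LP active component was lost with all 45 libraries (adjusted p = 0.0672) and with DESeq2 (0.0854). Of the 5 genes most like a member, a minimum of 5 CPM kept 2 for Ptges and for Ptgds, 4 for Ptger3 and for Ptger4, and 5 for Ptgs2 and for Ptges3. Depth limits Ptger2 most, then Ptger4, Ptgs1 and Ptges, which had as few as 4, 8 and 11 reads in a library.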
